A study of Rattus norvegicus with 32 samples.

Results

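The MAP kinases, the kinases above them in the cascade and the dual-specificity phosphatases were measured in laser-captured CA3 neurons of the rat hippocampus after traumatic brain injury (TBI). Members were taken from the platform annotation by symbol, as every probe named Mapk, Map2k, Map3k, Map4k or Dusp followed by a number. This gave 74 probes of 55 genes, of 12573 genes named by a single symbol. Tests covered the probes that exceeded background on each of the 4 arrays of some group, and 47 member probes of 38 genes did so. These 38 genes comprised 23 kinases and 15 phosphatases.

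In the cascade, a MAP3K phosphorylates a MAP2K and the MAP2K phosphorylates a MAP kinase on a threonine and a tyrosine, with MAP4Ks acting above some MAP3Ks. The ERK branch answers mainly to growth factors and synaptic activity, and the JNK and p38 branches mainly to cellular stress and cytokines. Dual-specificity phosphatases remove both phosphates. Dusp1, Dusp2, Dusp4 and Dusp5 are nuclear phosphatases that are induced by the signalling they end, Dusp6 is the cytoplasmic ERK phosphatase of the same kind of feedback loop, and these 5 are called the inducible phosphatases here.

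The study had 8 groups of Sprague-Dawley rats, each with 2 pooled samples (pools) of 3 to 6 rats and each pool on 2 arrays. At 4 h and at 24 h the groups were TBI after metyrapone (TBI+MT, 100 mg/kg), TBI after carbenoxolone (TBI+CB, 30 mg/kg), TBI after saline (TBI) and sham injury (sham). Metyrapone blocks corticosteroid synthesis and carbenoxolone inhibits 11-beta-hydroxysteroid dehydrogenase. Per the labels the agents were given under the skin 90 min before fluid percussion and the 4 h and 24 h were counted from that injection. The study's text states a shorter interval and counts the times from the injury, so which start they have is unsettled. The 4 h sham rats are labelled untreated, so sham differed from TBI in injury and perhaps in the saline injection. The rats were adult male outbred animals with no transgene, and each captured pool held neurons that were negative for the degeneration stain Fluoro-Jade. The study's text describes taking them next to stained neurons on the injured side and regards sham neurons as uninjured. How sham neurons were located is not stated apart, so the place of capture may also differ between sham and TBI.

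Every level below is the spot intensity of a probe as a multiple of its array's median, averaged over the duplicate arrays of a pool, and levels of different probes are not comparable. A fold change is a difference of mean log2 levels, with its standard error (SE) and Benjamini-Hochberg adjusted p from limma over all probes tested, n = 2 pools in each group. No probe of the array passed an adjusted p of 0.05 in any comparison, so percent called was 0 throughout, and no member passed under any alternative setting. Without TBI pool 1 at 4 h, 47 probes passed for TBI against sham and 49 for TBI+MT against TBI at that time, and without TBI+CB pool 1 at 24 h 15 passed for TBI+CB against TBI. At an unadjusted p under 0.05, TBI against sham had 2 members and 589 probes (3.34%) at 4 h and 0 members and 325 probes (1.84%) at 24 h. TBI+MT against TBI had 1 member and 834 probes (4.73%) at 4 h and 2 members and 970 probes (5.51%) at 24 h, and TBI+CB against TBI had 0 members and 606 probes (3.44%) at 4 h and 1 member and 1447 probes (8.22%) at 24 h. All differences below are therefore given as values.

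The share of probes above background ran from 27.4% in TBI+MT pool 1 at 24 h and 30.1% in TBI+CB pool 2 at 24 h to 64.5% in TBI+MT pool 2 at 4 h. The median correlation was 0.975 between duplicate arrays and 0.873 between the 2 pools of a group (lowest 0.733). Pyramidal neuron markers were present, with Slc17a7, Camk2a and Grik4 above background on all 32 arrays and 5 of 10 listed markers measured. Astrocyte (7 of 8), microglial (8 of 10), oligodendrocyte (7 of 10) and endothelial (8 of 10) markers were measured too. In captured samples of this kind, fewer cells of a type and less RNA per cell cannot be told apart.

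The promoters of the 3 inducible phosphatases that could be measured are shown because these are the members built to follow the signalling itself. The sequences are the 250 bases before the annotated start in RefSeq, build GRCr8, read 5′ to 3′. Capitals mark the cyclic AMP response element (CRE) TGACGTCA, its shorter sites TGACG and CGTCA, and CArG boxes, the binding sequence of serum response factor. Both strands were searched, and short sites inside a full CRE overlap it. Dusp1 lies on the plus strand with the window chr10:17184603-17184852, Dusp2 on the plus strand with chr3:135009386-135009635 and Dusp5 on the plus strand with chr1:262543524-262543773.
Dusp1 promoter: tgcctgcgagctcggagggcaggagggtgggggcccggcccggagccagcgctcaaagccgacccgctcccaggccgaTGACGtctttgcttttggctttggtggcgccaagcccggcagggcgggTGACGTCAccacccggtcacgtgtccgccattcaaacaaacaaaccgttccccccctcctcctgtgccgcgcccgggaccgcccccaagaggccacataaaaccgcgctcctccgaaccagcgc
Dusp2 promoter: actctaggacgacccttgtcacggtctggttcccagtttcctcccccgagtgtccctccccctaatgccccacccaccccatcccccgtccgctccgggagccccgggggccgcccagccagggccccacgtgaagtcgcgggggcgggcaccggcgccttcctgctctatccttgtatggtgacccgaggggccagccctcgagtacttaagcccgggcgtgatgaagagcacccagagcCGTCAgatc
Dusp5 promoter: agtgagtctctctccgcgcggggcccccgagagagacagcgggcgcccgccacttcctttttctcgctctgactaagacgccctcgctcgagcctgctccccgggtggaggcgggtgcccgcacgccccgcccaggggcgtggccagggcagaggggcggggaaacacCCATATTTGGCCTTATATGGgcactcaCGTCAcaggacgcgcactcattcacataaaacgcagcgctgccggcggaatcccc

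The Dusp1 window holds a full CRE that starts 124 bases before the annotated start and a separate short site at 172 bases. The Dusp5 window holds a pair of CArG boxes side by side, at 82 and 72 bases, and a short site at 55 bases. The Dusp2 window holds 1 short site, at 9 bases. Of the inducible phosphatases not shown, Dusp6 had a window with none of these sites and Dusp4 had no promoter entry. A full CRE was found in 1.59% and a CArG box in 1.5% of all 33469 promoter windows of this length, a short site in 18.2%.

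Of the 55 member genes, 50 had a RefSeq promoter entry. A full CRE was found in 4 of them, Dusp1, Dusp11, Map3k13 and Mapk10, and a CArG box in 2, Dusp5 and Map4k1. A short site was found in 8 of 19 phosphatase windows (42.1%) and in 6 of 31 kinase windows (19.4%). The AP-1 sequences TGAGTCA and TGACTCA were in 0 of 50 member windows and 4.05% of all windows, and the GC box GGGCGG in 34 of 50 (68%) and 30.5%. These are matches of letters and say nothing about binding in these neurons.

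At 4 h, Dusp5, a nuclear phosphatase that acts on ERK, separated all TBI and sham pools. Its levels were 10.1 and 12.02 in TBI+MT, 19.6 and 16.6 in TBI+CB, 16.1 and 15.3 in TBI and 7.32 and 8.35 in sham. The TBI+CB and TBI pools were the 4 highest, TBI+MT lay between, and sham was lowest without overlap. For TBI against sham the log2 fold change was 1.01 (SE 0.44, adjusted p = 0.936), and the gene's other probe gave 1.754.

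For TBI+MT against TBI at 4 h the Dusp5 log2 fold change was -0.52 (adjusted p = 0.736), and for TBI+CB against TBI it was 0.20 (adjusted p = 0.957). The TBI+MT value turned to 0.044 when arrays were quantile normalized, so its direction depends on the scaling. At 24 h the levels were 10.4 and 7.18 in TBI+MT, 7.44 and 7.76 in TBI+CB, 13.5 and 11.8 in TBI and 7.502 and 12.4 in sham. Both drug groups lay below both TBI pools, at -0.54 for TBI+MT and -0.73 for TBI+CB (adjusted p = 0.925 and 0.612), while the other probe had the opposite sign in both, 1.12 and 1.46.

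Dusp1, the phosphatase of p38, JNK and ERK also known as MKP-1 and a classical glucocorticoid-induced gene, was highest in TBI at 4 h. Its levels were 0.910 and 1.296 in TBI+MT, 2.57 and 3.21 in TBI+CB, 3.18 and 7.08 in TBI and 1.39 and 3.18 in sham. Both TBI+MT pools were below every other pool at that time, and the lower TBI pool, both TBI+CB pools and the higher sham pool lay between 2.57 and 3.21. For TBI+MT against TBI the log2 fold change was -2.13 (SE 0.91, adjusted p = 0.736), for TBI+CB against TBI -0.72 (adjusted p = 0.957) and for TBI against sham 1.18 (SE 0.91, adjusted p = 0.936).

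At 24 h Dusp1 was 0.256 and 1.89 in TBI+MT, 2.79 and 1.43 in TBI+CB, 0.863 and 0.365 in TBI and 1.39 and 0.518 in sham. TBI was not well above background on any array, so a bound, the lowest signal above background, stands in for it. Against this bound TBI+CB was 1.72-fold higher (adjusted p = 0.592). Only 2 of 4 TBI+CB arrays were above background and the others entered as measured, so this is not a strict minimum. The dimmest value belonged to the TBI+MT pool with the fewest probes above background.

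Dusp2, a nuclear phosphatase of ERK and p38, was above background on every array. At 4 h its levels were 38.9 and 55.8 in TBI+MT, 74.9 and 53.4 in TBI+CB, 51.4 and 87.3 in TBI and 42.6 and 64.1 in sham. All 4 groups overlapped. TBI against sham gave a log2 fold change of 0.36, TBI+MT against TBI one of -0.52 and TBI+CB against TBI one of -0.083, and each changed sign with quantile normalization, to -0.12, 0.14 and 0.34.

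At 24 h Dusp2 was 48.0 and 35.4 in TBI+MT, 51.8 and 31.4 in TBI+CB, 69.6 and 67.0 in TBI and 65.5 and 62.7 in sham. Both drug groups lay below TBI and sham without overlap. Against TBI, the log2 fold change was -0.73 in TBI+MT and -0.76 in TBI+CB (adjusted p = 0.921 and 0.628). Without the 2 dim pools at 24 h, TBI+MT pool 1 and TBI+CB pool 2, the TBI+CB value was -0.40. Dusp4 was above background on 0 of 32 arrays and Dusp6 on 1, so neither could be followed.

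By the slide numbers in the file headers, read here as runs of slides, both sham pools and TBI pool 1 at 4 h lay on 1 run, and TBI pool 2 lay on another with all drug pools at 4 h. With the run as a block, TBI against sham rests on TBI pool 1 and each drug comparison on TBI pool 2. The log2 fold change for TBI against sham was then 1.04 for Dusp5, 0.60 for Dusp1 and -0.023 for Dusp2. For TBI+MT against TBI it was -2.70 for Dusp1 and -0.48 for Dusp5, and for TBI+CB against TBI -1.301 for Dusp1 and 0.23 for Dusp5.

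**Figure D1:**
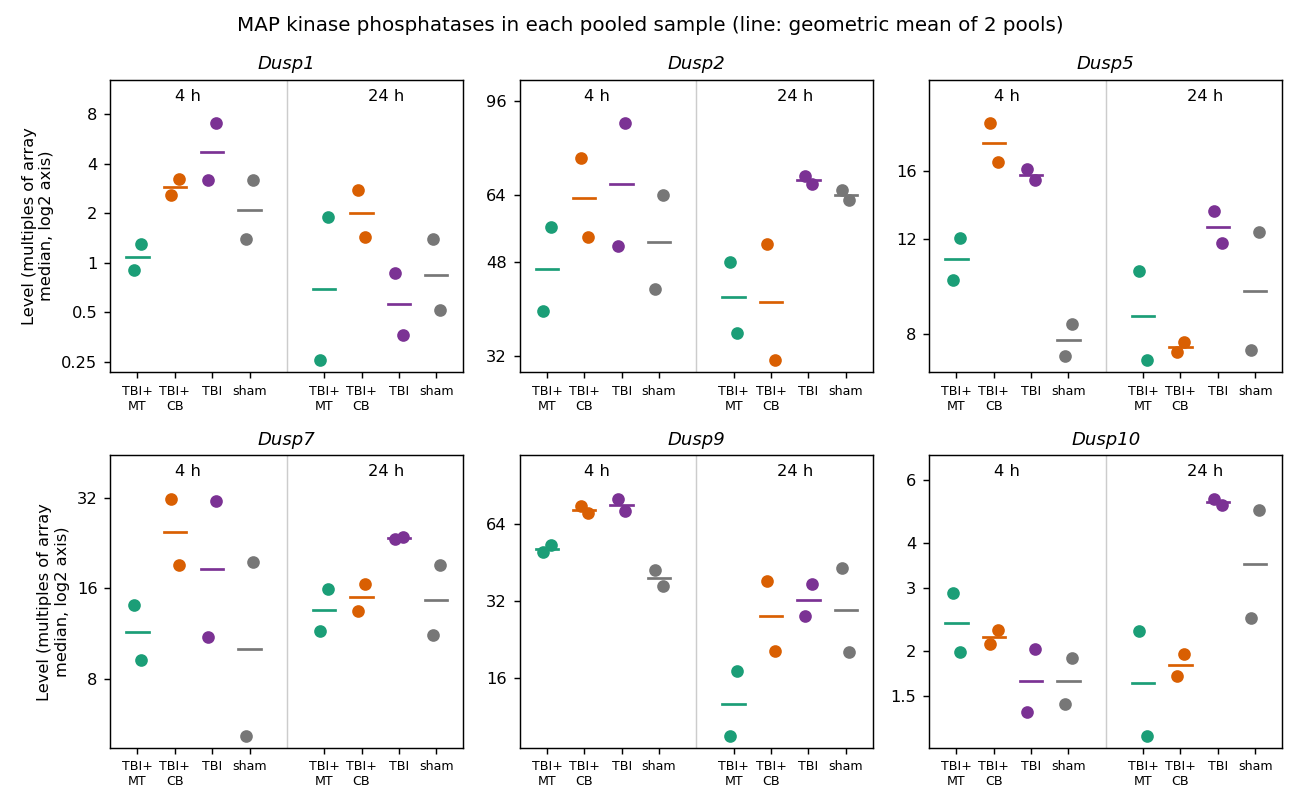
Level of 6 MAP kinase phosphatases in each pooled sample (y axis, multiples of the array median on a log2 axis; x axis, group at 4 h and at 24 h; points, 2 pools a group; line, geometric mean). Dusp5 at 4 h lies at 15.3 to 19.6 in TBI and TBI+CB and at 7.32 and 8.35 in sham, and Dusp10 at 24 h lies at 5.31 and 5.10 in TBI and at 1.16 to 2.28 in the drug groups.

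The remaining MAP kinase phosphatases were measured by Dusp7 and Dusp9, which act on ERK in the cytoplasm, and Dusp8 and Dusp10, which act on JNK and p38. At 4 h Dusp7, Dusp8 and Dusp9 stood higher in TBI than in sham and Dusp10 was at 0.0027 (median log2 fold change of the 4, 0.74). At 24 h all 4 stood lower in TBI+MT than in TBI with no overlap of pools (median -1.08), a pattern that 28.6% of all probes had. All 4 were also lower in TBI+CB at 24 h (median -0.62), as were 51.3% of all probes, and 2 of them had no overlap, which 27.3% of all probes had.

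Dusp10 had the smallest p of all members. At 24 h its levels were 2.28 and 1.16 in TBI+MT, 1.70 and 1.97 in TBI+CB, 5.31 and 5.10 in TBI and 2.47 and 4.94 in sham. The TBI pools were the 2 highest of the time point and the drug pools the 4 lowest, with 2 of 4 arrays above background in each drug group. Its log2 fold change was -1.68 for TBI+MT against TBI (SE 0.52, adjusted p = 0.746) and -1.51 for TBI+CB against TBI (SE 0.52, adjusted p = 0.592).

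At 4 h Dusp10 was 2.90 and 1.99 in TBI+MT, 2.09 and 2.29 in TBI+CB, 1.35 and 2.02 in TBI and 1.43 and 1.91 in sham. TBI overlapped TBI+MT and sham, and TBI+CB lay just above TBI. The drug effect at 24 h minus that at 4 h was -2.21 for TBI+MT (SE 0.73, adjusted p = 0.980) and -1.91 for TBI+CB (adjusted p = 0.574) on the log2 scale.

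Both drug comparisons use the same 2 TBI pools, so the values of Dusp10 in them are not separate observations of TBI. At 24 h the 4 drug pools lay on a slide run that held no TBI or sham pool, so drug and slide run cannot be told apart at 24 h for this or any other member. The drug groups at 24 h also include the 2 pools with the fewest probes above background. Without both of these pools the log2 fold change of Dusp10 was -2.16 for TBI+MT and -1.62 for TBI+CB.

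Dusp9 at 4 h was 49.97 and 53.0 in TBI+MT, 75.5 and 71.0 in TBI+CB, 80.9 and 72.4 in TBI and 42.4 and 36.6 in sham. The order of groups was TBI and TBI+CB together, then TBI+MT, then sham, as for Dusp5, and the pools of each of these 3 levels did not overlap. For TBI against sham the log2 fold change was 0.96 (SE 0.53, adjusted p = 0.936). At 24 h Dusp9 was 9.44 and 17.0 in TBI+MT, 38.5 and 20.4 in TBI+CB, 28.0 and 37.2 in TBI and 43.2 and 20.2 in sham, and TBI+MT lay below all other pools (against TBI -1.35, SE 0.53, adjusted p = 0.848).

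Dusp7 varied between the pools of a group at 4 h, with 14.1 and 9.25 in TBI+MT, 31.9 and 19.2 in TBI+CB, 11.03 and 31.3 in TBI and 5.15 and 19.7 in sham. At 24 h it was 11.5 and 15.9 in TBI+MT, 13.5 and 16.5 in TBI+CB, 23.4 and 23.8 in TBI and 11.2 and 19.1 in sham. The TBI pools were the 2 highest at 24 h, with a log2 fold change of -0.80 for TBI+MT against TBI (adjusted p = 0.925), where the gene's other probe gave -0.25. For TBI against sham at 24 h the 2 probes had opposite signs, 0.69 and -0.22. Dusp8 at 4 h was 6.36 and 8.85 in TBI+MT, 6.86 and 7.06 in TBI+CB, 12.5 and 11.6 in TBI and 6.72 and 9.42 in sham, so that both TBI pools were above all 6 others. Dusp16, which also acts on JNK and p38, was above background on 0 arrays.

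The atypical phosphatases are smaller enzymes, several of which act on substrates other than MAP kinases. Of 11 genes, 8 were measured: Dusp3, Dusp11, Dusp12, Dusp14, Dusp18, Dusp19, Dusp23 and Dusp26. In TBI against sham at 4 h, 5 of 8 stood higher (69.1% of all probes; median log2 fold change 0.53), and in TBI+MT against TBI at 4 h, 6 of 8 stood lower (70.4% of all probes; median -0.91). Dusp26, a phosphatase enriched in neural tissue, was 4.69 and 6.29 in TBI+MT, 12.3 and 13.1 in TBI+CB, 8.79 and 31.6 in TBI and 5.88 and 15.1 in sham at 4 h.

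For Dusp26 both TBI+MT pools were below both TBI pools (-1.62, SE 0.77, adjusted p = 0.736), and the TBI pools were themselves far apart. Dusp19, which acts on JNK pathway kinases, was 4.69 and 7.40 in TBI and 2.51 and 2.26 in sham at 4 h, without overlap. At 24 h it was 1.06 and 2.63 in TBI and 4.01 and 3.24 in sham, the reverse order. The effect of TBI at 24 h minus that at 4 h was -2.42 (SE 1.06, adjusted p = 0.9999).

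Dusp14 at 4 h was 3.81 and 5.72 in TBI and 2.15 and 2.52 in sham, again without overlap (1.005, SE 0.57, adjusted p = 0.936). Dusp18 could not be read, since its 2 probes had opposite signs in TBI against sham at 4 h, -0.66 and 0.63. Dusp15, Dusp22 and Dusp29 were not kept; Dusp22 was above background on 8 arrays.

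Among the MAP kinases themselves, 7 of 11 genes on the array were measured: Mapk6, Mapk7, Mapk8, Mapk11, Mapk12, Mapk14 and Mapk15. In TBI against sham at 4 h, 5 of 7 stood higher (69.1% of all probes), with a median log2 fold change of 0.56 and a median probe at 0.33. In TBI+MT against TBI at 4 h, 5 of 7 stood lower (70.4% of all probes), with a median of -1.06 and a median probe at -0.40. Both counts were near the share over all probes. Mapk14, the p38-alpha kinase, was 9.08 and 26.4 in TBI+MT, 17.9 and 25.0 in TBI+CB, 32.8 and 46.4 in TBI and 13.9 and 13.1 in sham at 4 h. TBI was above all 6 other pools.

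For TBI against sham the Mapk14 log2 fold change was 1.53 (SE 0.83, adjusted p = 0.936), and its other probe gave 1.37. For TBI+MT against TBI it was -1.33 (adjusted p = 0.736), and the other probe gave -1.58. At 24 h both TBI pools stood at 9.02 and 9.28, between the pools of each other group: 2.58 and 14.6 in TBI+MT and 13.1 and 4.85 in sham, with 21.0 and 8.74 in TBI+CB. The log2 fold change for TBI+MT against TBI at 24 h was -0.58, while the other probe gave 0.62.

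Mapk8, the JNK1 kinase, was 31.7 and 89.2 in TBI+MT, 78.2 and 61.0 in TBI+CB, 83.1 and 181 in TBI and 65.0 and 67.4 in sham at 4 h. TBI lay above sham, by 0.89 on the log2 scale, and overlapped TBI+MT. For TBI+CB against TBI at 4 h the log2 fold change was -0.83, while the gene's other probe gave 0.16. At 24 h the TBI+MT pools were 22.7 and 148, a range that held every other pool of that time.

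Mapk12, the p38-gamma kinase, stood differently at the 2 times. At 4 h it was 0.902 and 0.712 in TBI+MT, 0.666 and 0.813 in TBI+CB, 1.43 and 2.97 in TBI and 1.28 and 1.08 in sham, with the drug pools lowest and the TBI pools highest. At 24 h it was 1.47 and 2.75 in TBI+MT, 1.79 and 1.42 in TBI+CB, 1.399 and 0.528 in TBI and 1.44 and 0.374 in sham, with the drug pools above both TBI pools.

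The log2 fold change of Mapk12 at 4 h was -1.49 for TBI+CB against TBI (SE 0.70, adjusted p = 0.957) and -1.36 for TBI+MT (adjusted p = 0.736). The drug effect at 24 h minus that at 4 h was 2.59 for TBI+MT (SE 0.99, adjusted p = 0.980) and 2.38 for TBI+CB (adjusted p = 0.574). With the slide run as a block, the value at 4 h was -2.02 for TBI+CB and -1.89 for TBI+MT. The Mapk12 spots were dim, above background on 1 to 2 of 4 arrays in the drug groups and in TBI and sham at 24 h.

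Mapk7, the ERK5 kinase, was 4.71 and 1.28 in TBI and 3.70 and 3.37 in sham at 4 h, so that TBI spanned sham. Mapk11, the p38-beta kinase, was 5.89 and 3.82 in TBI and 2.87 and 5.09 in sham, with overlap. Mapk15, an atypical ERK, was lower in TBI+CB than in TBI at 24 h, at 4.15 and 5.36 against 9.81 and 9.51 (-1.03, SE 0.51, adjusted p = 0.592). The kept probes of Mapk6 had opposite signs at 24 h, at -0.16 and 0.053 for TBI against sham and -0.32 and 0.83 for TBI+MT against TBI. Mapk9 and Mapk10, the other JNK genes, Mapk13, the p38-delta kinase, and Mapk4 were not kept, being above background on 7 arrays or fewer.

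The ERK1 gene carries no symbol in the platform annotation and so lay outside the rule, but a description column of the scanner output names 2 probes for it. The brighter of these ERK1 probes (Mapk3) was above background on all 32 arrays. Its levels at 4 h were 26.6 and 40.4 in TBI+MT, 33.4 and 40.6 in TBI+CB, 52.7 and 61.0 in TBI and 37.97 and 51.8 in sham. TBI was above the 6 other pools (against sham 0.35, SE 0.59, adjusted p = 0.936).

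**Figure D2:**
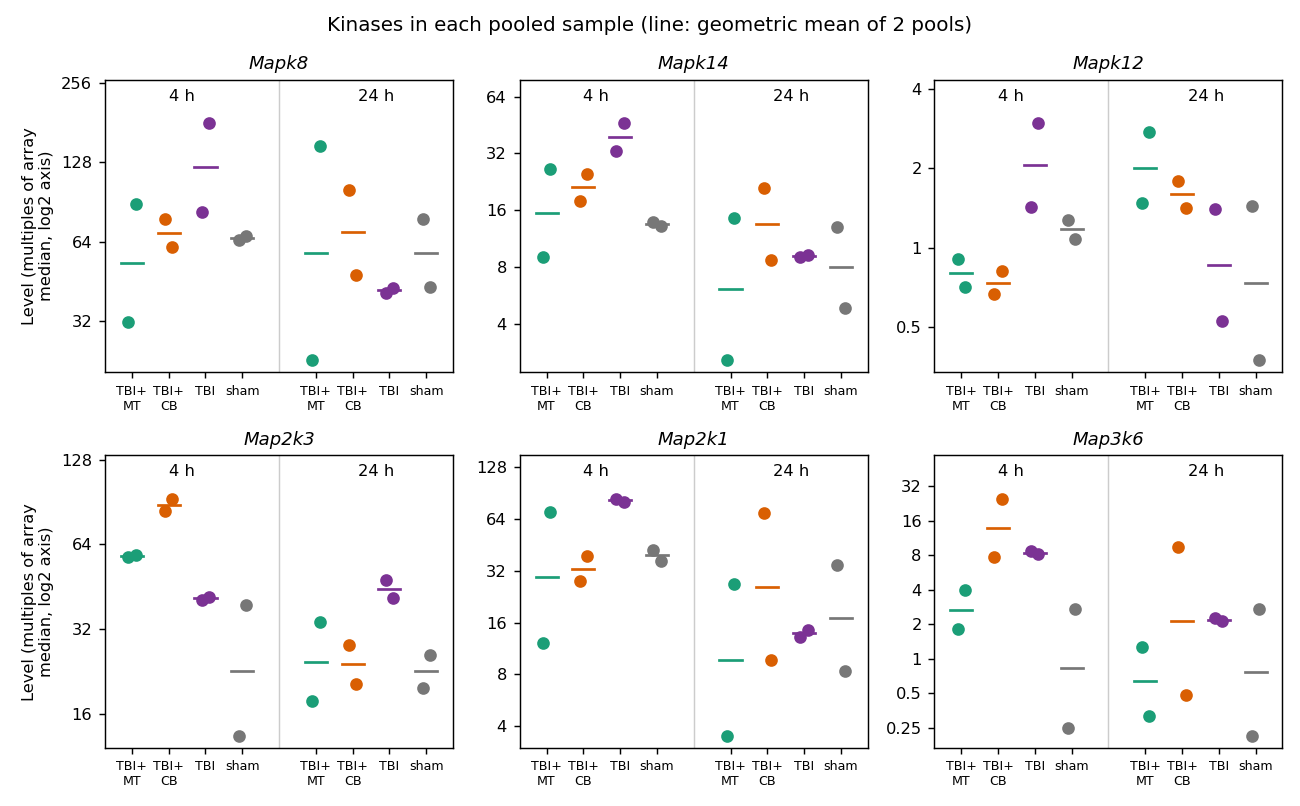
Level of 6 kinases in each pooled sample (y axis, multiples of the array median on a log2 axis; x axis, group at 4 h and at 24 h; points, 2 pools a group; line, geometric mean). Mapk14 at 4 h is 32.8 and 46.4 in TBI against 13.9 and 13.1 in sham, and Map2k3 at 4 h is 84.2 and 93.1 in TBI+CB against 40.6 and 41.7 in TBI.

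The MAP2Ks are the kinases that activate the MAP kinases, and 4 of 5 on the array were measured; Map2k7, a JNK kinase, was above background on 0 arrays. Map2k3, which activates p38, was 57.8 and 58.9 in TBI+MT, 84.2 and 93.1 in TBI+CB, 40.6 and 41.7 in TBI and 13.4 and 38.9 in sham at 4 h. The groups followed in the order TBI+CB, TBI+MT, TBI and sham with no overlap. It had a log2 fold change of 1.11 for TBI+CB against TBI (SE 0.55, adjusted p = 0.957) and 0.85 for TBI against sham (SE 0.55, adjusted p = 0.936). The last value rested on 1 sham pool, being 0.082 without sham pool 1 and 1.62 without sham pool 2.

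At 24 h Map2k3 was 17.8 and 33.8 in TBI+MT, 28.1 and 20.4 in TBI+CB, 47.9 and 41.3 in TBI and 19.8 and 25.9 in sham. The TBI pools were now the 2 highest and both drug groups overlapped sham. The TBI+CB effect at 24 h minus that at 4 h was -1.997 (SE 0.78, adjusted p = 0.574).

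Map2k1, the MEK1 kinase of ERK, was 12.2 and 69.8 in TBI+MT, 27.9 and 38.8 in TBI+CB, 83.7 and 80.3 in TBI and 42.3 and 36.5 in sham at 4 h. The TBI pools were the 2 highest and were close to each other, but the pools of TBI+MT were far apart. The log2 fold change for TBI against sham was 1.06 with an SE of 1.14, since the spread is set by all groups, and at 24 h the TBI+MT pools were 3.52 and 26.6 and the TBI+CB pools 69.1 and 9.67.

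Map2k5, the kinase of ERK5, and Map2k6, a p38 kinase, varied least among the MAP2Ks. Map2k5 ran from 25.4 to 46.9 over the 16 pools. At 24 h it was 35.6 and 25.4 in TBI+CB and 46.9 and 44.4 in TBI, and Map2k6 was 61.5 and 57.6 in TBI+CB and 102 and 103 in TBI. Neither pair overlapped, with log2 fold changes of -0.60 for Map2k5 and -0.78 for Map2k6.

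Of the MAP3Ks, 9 of 14 genes were measured, and in TBI against sham at 24 h all 9 stood higher (median log2 fold change 0.32), where 51% of all probes did, and 0 did so without overlap of the pools, where 13.1% of all probes did. Map3k6, a stress kinase that pairs with the kinase Map3k5, had the largest log2 fold change of the members in TBI against sham at 4 h. Its levels were 1.80 and 3.94 in TBI+MT, 7.72 and 25.0 in TBI+CB, 8.66 and 8.22 in TBI and 0.248 and 2.74 in sham. TBI and TBI+CB lay above TBI+MT, and TBI+MT overlapped sham.

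The Map3k6 log2 fold change for TBI against sham was 3.36 (SE 1.53, adjusted p = 0.936). It rested on the 2 sham pools, of which 2 of 4 arrays were above background, and was 1.62 to 5.09 when pools were left out in turn, lowest without sham pool 1 and highest without sham pool 2. At 24 h TBI+MT was not well above background on any array, and TBI+MT was at least 1.67-fold lower than TBI (adjusted p = 0.925).

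Map3k3, which acts on the ERK5 branch, was 7.49 and 10.7 in TBI+CB and 15.8 and 20.5 in TBI at 4 h, without overlap (-1.01, SE 0.49, adjusted p = 0.957). Map3k11, a mixed-lineage kinase above JNK, was 9.94 and 5.66 in TBI+CB and 13.4 and 15.7 in TBI at 24 h (-0.95, SE 0.48, adjusted p = 0.593). It had no value for TBI against sham at 4 h, since its spot was irregular on all sham arrays and on those of TBI pool 1 at that time. Map3k1, Map3k8, Map3k10, Map3k14 and Map3k21 were not kept, the first 2 being above background on 0 arrays.

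Among the MAP4Ks, Map4k1, Map4k2 and Map4k3 were measured and Map4k4 was not kept. Map4k3 was 65.8 and 124 in TBI+MT, 135 and 136 in TBI+CB, 146 and 247 in TBI and 129 and 115 in sham at 4 h, and TBI was above all other pools (TBI+MT against TBI -1.07, SE 0.89, adjusted p = 0.736). Map4k2 was 1.77 and 4.14 in TBI and 9.86 and 3.65 in sham at 24 h, a log2 fold change of -1.15 with overlapping pools, and its other probe gave 0.27. Map4k1, a kinase best known from blood cells, was at 0.47 for TBI+CB against TBI at 4 h.

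Over all members, 28 of 37 stood higher in TBI than in sham at 4 h, where 69.1% of all probes did, and 7 stood over 2-fold higher, where 15.9% of all probes did. Both TBI pools lay above both sham pools for 15 members (36.4% of all probes) and below them for 0 (7.57%). The median member was at 0.49 and the median probe at 0.33. Measured from the median probe, 22 of 37 were above it, and after quantile normalization 21 stood higher and 16 lower. The count in each direction thus depended on the scaling.

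In TBI+MT against TBI, 30 of 38 members stood lower (70.4% of all probes) and 12 over 2-fold lower (25.1%), with both pools below both TBI pools for 14 (33.5%) and above them for 1 (8.13%). The median member was at -0.58 and the median probe at -0.40, and after quantile normalization 20 stood higher and 18 lower. In TBI+CB against TBI, 24 stood lower (63.3%) and 6 over 2-fold lower (15.9%), with both pools below both TBI pools for 13 (34.5%) and above them for 5 (7.4%), and both medians at -0.28. After quantile normalization 23 stood higher and 15 lower, 1 of them over 2-fold, so this direction also depended on the scaling.

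At 24 h, 28 of 38 members stood higher in TBI than in sham, against 51% of all probes, with a median of 0.15 and a median probe at 0.012. After quantile normalization 29 stood higher. The count takes 1 probe a gene. Of 9 genes with more than 1 kept probe, the probes had the same sign for 4 in this comparison, against 8 in TBI against sham at 4 h. Few were free of overlap, 6 higher (13.1% of all probes) and 2 lower (11.4%). In TBI+MT against TBI 30 stood lower (74%), with both pools below both TBI pools for 13 (28.6%) and above them for 1 (5.68%). In TBI+CB against TBI 23 stood lower (51.3%), with both pools below for 15 (27.3%) and above for 4 (15.8%), and members over 2-fold from TBI were 4 higher (14.3%) and 2 lower (15.2%).

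**Figure D3:**
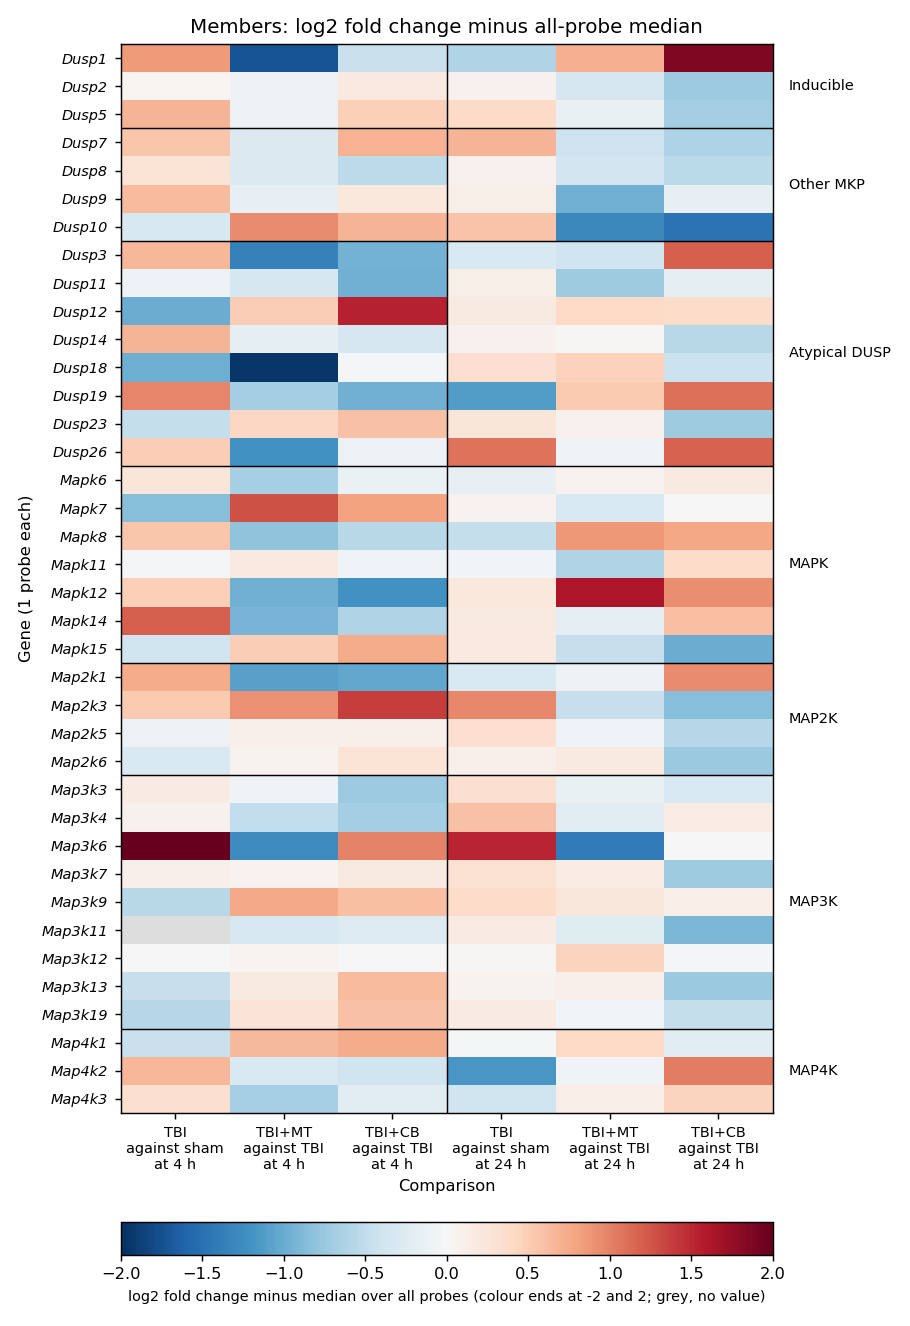
Log2 fold change of each of 38 members minus the median over all probes, in 6 comparisons (x axis, comparison; y axis, gene by class; red, above the median probe; blue, below; grey, no value; colours end at -2 and 2). Dusp1 and Dusp3 are blue in TBI+MT against TBI at 4 h, Dusp10 is red in both drug comparisons at 4 h and blue in both at 24 h, and Mapk12 shows the opposite order.

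The kinases were also set against the inducible phosphatases. For each pool the mean log2 level of Dusp1, Dusp2 and Dusp5 minus that of the 22 kinases with a value in all pools was taken, which removes any scaling shared by the array. At 4 h this index was -0.77 and -0.86 in TBI+MT, -0.16 and -0.35 in TBI+CB, -0.41 and -0.12 in TBI and -0.71 and -0.46 in sham. TBI and TBI+CB overlapped each other and lay above sham and TBI+MT.

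At 4 h the index of TBI+MT minus that of TBI was -0.55, TBI+CB minus TBI gave 0.0082 and TBI minus sham 0.32, with an SD of 0.22 between pools of a group. In TBI against sham the inducible phosphatases stood 0.85 and the kinases 0.52 higher, where the mean over all probes stood 0.26 higher. In TBI+MT against TBI both classes stood lower, at -1.06 for the phosphatases and -0.50 for the kinases, with -0.35 over all probes. The class medians there, over 23 kinases, were -0.52 for the phosphatases and -0.34 for the kinases. After quantile normalization these medians were 0.044 and 0.093, so the direction of each class depended on the scaling. With probes limited to those above background on all 32 arrays, which leaves out Dusp1, the TBI+MT difference in the index was -0.14. Blocking on the slide run gave -0.70, and 0.18 for TBI minus sham.

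At 24 h the index was -0.56 and -0.85 in TBI+MT, -0.86 and -0.37 in TBI+CB, -0.54 and -1.01 in TBI and -0.58 and -0.61 in sham. All 4 groups overlapped. TBI+MT minus TBI gave 0.070, TBI+CB minus TBI 0.16 and TBI minus sham -0.18, each within the SD between pools. The index was not tested, since the members were chosen with results known.

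**Figure D4:**
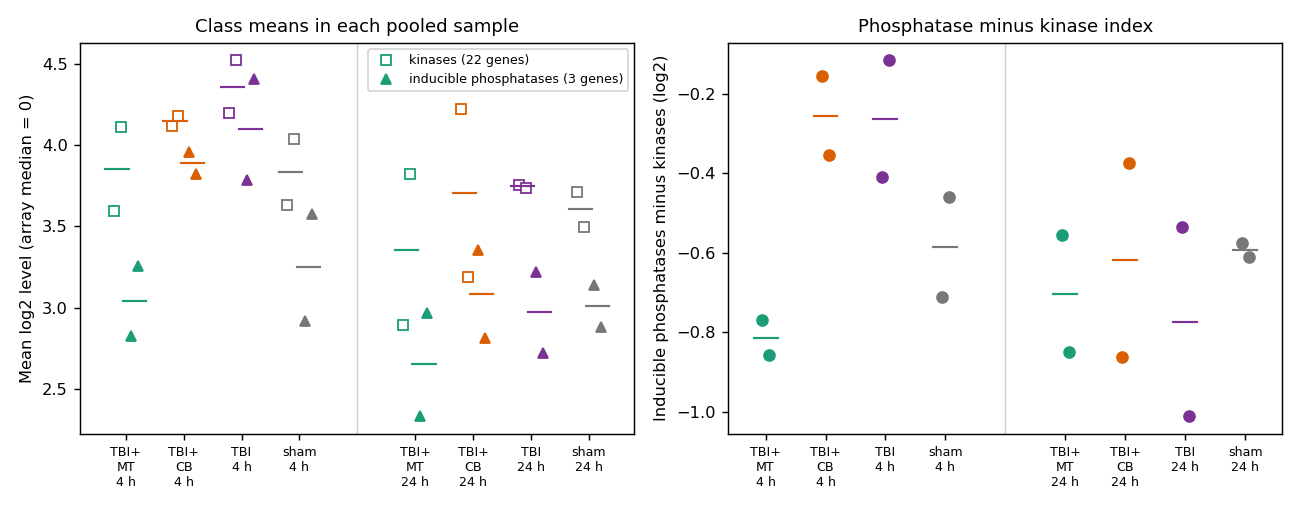
Left, mean log2 level of 22 kinases (open squares) and 3 inducible phosphatases (triangles) in each pool (y axis, log2 with the array median at 0; lines, means of 2 pools); right, the phosphatase mean minus the kinase mean. At 4 h the index is -0.77 and -0.86 in TBI+MT, below -0.41 and -0.12 in TBI, and at 24 h the groups overlap.

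Several members were lowest in the pool with the fewest probes above background. Map2k1 ran from 3.52 in the pool with 27.4% of probes above background, Mapk14 from 2.58 and Dusp3 from 0.628, the lowest values of each, and the highest value of each was in a TBI pool at 4 h, at 83.7, 46.4 and 37.3. Dusp23 ran the other way, with 6.98 in the pool with 27.4% and 2.28 in the pool with 64.5%. The pools of TBI+MT at 24 h had 27.4% and 45.4%, those of TBI+CB 58% and 30.1%, those of TBI 40.05% and 45.6% and those of sham 49.7% and 37.8%.

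**Figure D5:**
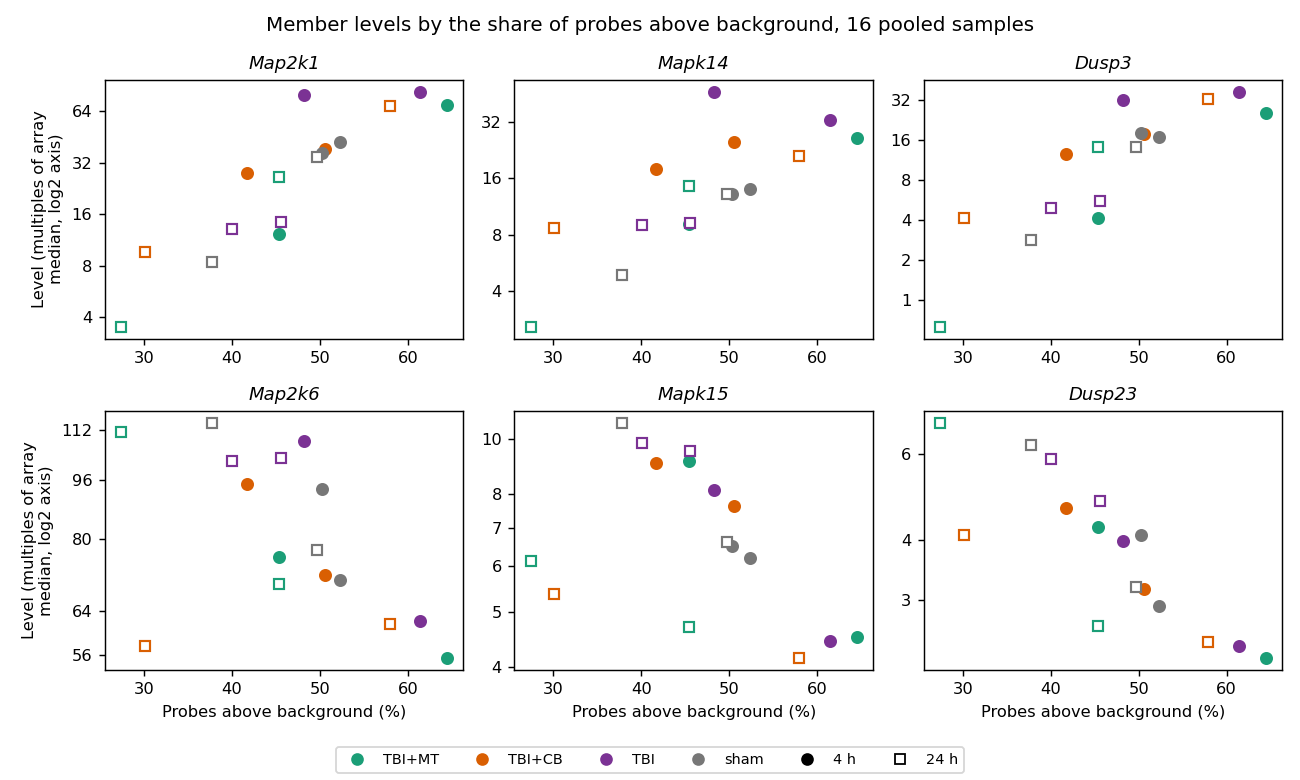
Level of 6 members (y axis, multiples of the array median on a log2 axis) against the percent of probes above background (x axis) in the 16 pooled samples, coloured by group, filled at 4 h and open at 24 h. Map2k1, Mapk14 and Dusp3 are lowest in the pool at 27.4%, and Dusp23 is highest there at 6.98 and lowest, at 2.28, in the pool at 64.5%.

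Markers of other cells also differed at 4 h. The summed astrocyte markers ran from 256 to 333 in TBI+MT, 464 to 558 in TBI+CB, 411 to 1115 in TBI and 343 to 660 in sham. Endothelial markers were 26.2 to 26.6 in TBI+MT, 30.0 to 41.0 in TBI+CB, 48.4 to 56.3 in TBI and 42.8 to 90.2 in sham, and oligodendrocyte markers 134 to 137 in TBI+MT, 167 to 199 in TBI+CB, 182 to 238 in TBI and 111 to 269 in sham. Pyramidal markers were 486 to 524 in TBI+MT and 538 to 567 in TBI, interneuron markers 79.4 to 82.8 in TBI+MT and 94.9 to 136 in TBI, and microglial markers 29.8 to 33.8 in TBI+MT and 40.6 to 53.1 in TBI. The sums of these 6 lists thus lay lower in TBI+MT than in TBI at 4 h without overlap, as Dusp1, Dusp26 and 33.5% of all probes did. A sum is led by its brightest probes, such as Glul at 186 and 610 in TBI. Not every marker was lower, with Syn1 at 4.32 and 2.56 in TBI+MT against 2.07 and 2.03 in TBI. Grin1 overlapped, at 273 and 219 against 259 and 267. The blood marker measured also overlapped, at 0.957 and 0.978 against 0.651 and 1.26. Microglial markers at 24 h were 112 to 169 in TBI+MT, 149 to 154 in TBI+CB, 131 to 147 in TBI and 35.9 to 66.5 in sham. Their part in the member values was not tested.

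Other genes of the pathway were taken from a list of 64, of which 36 were measured. In TBI against sham at 4 h, 31 of 36 stood higher (69.1% of all probes) and 9 over 2-fold higher (15.9%). Their median was 0.63 and the median probe was at 0.33. In TBI+MT against TBI at 4 h, 31 stood lower (70.4%) and 11 over 2-fold lower (25.1%), with a median of -0.71 and a median probe at -0.40. In TBI+CB against TBI at 4 h, 22 stood lower (63.3%), with a median of -0.19 and a median probe at -0.28. None passed the test.

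The feedback inhibitors, Sprouty and Spred proteins with Errfi1 and Rgs2, were 5 of 5 higher in TBI than in sham at 4 h (median 1.253), where 69.1% of all probes stood higher with a median of 0.33, and 5 of 5 lower in TBI+MT than in TBI (median -1.002), where 70.4% of all probes stood lower with a median of -0.40. In TBI+CB 4 of 5 were lower than in TBI (median -0.37), where 63.3% of all probes were. The early transcription factor Fos was 8.20 and 13.98 in TBI+MT, 51.4 and 60.9 in TBI+CB, 37.1 and 25.9 in TBI and 1.83 and 12.99 in sham. Egr4 was 30.3 and 69.4 in TBI+MT, 77.3 and 89.9 in TBI+CB, 82.5 and 105 in TBI and 25.6 and 20.9 in sham. For both, TBI+CB and TBI lay above TBI+MT and sham, an order picked out after the values were seen. Of 10 early transcription factors measured, 3 had this order (Fos, Egr1 and Egr4), as had 4 of 37 members (Dusp5, Dusp9, Map3k6 and Map4k3) and 3.4% of all probes. The others did not, and Srf stood at 14.8 and 7.10 in TBI+MT, 11.1 and 7.32 in TBI+CB, 5.98 and 6.81 in TBI and 7.56 and 8.84 in sham.

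At 24 h Spry1, an inhibitor of growth factor signalling to ERK, was 1.10 and 1.37 in TBI+MT and 1.29 and 2.23 in TBI+CB. It was 2.90 and 2.72 in TBI and 2.16 and 2.67 in sham. TBI+MT lay below all TBI and sham pools (against TBI -1.19, SE 0.44, adjusted p = 0.837). The Spry1 spots were dim in the drug groups, above background on 2 of 4 TBI+MT and 3 of 4 TBI+CB arrays. Arrb1, a scaffold for ERK signalling, was not well above background on any TBI+MT array at 24 h. With the bound in its place it was 2.08-fold lower than in TBI (adjusted p = 0.754), where 3 of 4 arrays were above background. Its TBI+CB value was 0.613 and 0.934 against 1.49 and 5.02 in TBI (-1.85, adjusted p = 0.592). Rasa1, which turns Ras off, was not well above background in TBI at 24 h. Against the bound it was 1.42-fold higher in TBI+MT (adjusted p = 0.746), from 2 of 4 arrays. The folds of Arrb1 and Rasa1 are not strict minima, since arrays not above background in the brighter group entered as measured.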

How the data were processed

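RNA of laser-captured CA3 neurons, amplified in 2 rounds, was hybridised to 1-colour CodeLink rat arrays, 32 arrays of 16 pools. The deposited scanner files, written by CodeLink Expression Analysis 4.1 per the file headers, hold the spot intensity on a linear scale, with local background apparently subtracted. The authors' value table holds the ratio of each spot to its array median, as made by the authors, and served as an alternative. Here the intensity was divided by the array median, floored at 0.1 and taken to log2. Masked and irregular spots were left out, 17635 of 33849 probes were kept, and duplicate arrays were averaged. A fit of 8 groups (limma 3.58.1, R 4.3.3, data.table version 1.17.8; 8 residual and 3.88 prior degrees of freedom) gave each comparison, with Benjamini-Hochberg adjustment within it. The script was tested on simulated data.

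Pools are labelled as separate samples of pooled rats, so p-values cover the spread between pools. Arrays give no counts, and the number of pools limits the precision. A gene's kept probe with the highest mean represents it. Where a probe was not above background on any array of a group, that group was set to a bound. The bound is the lowest signal above background on each array, or the probe's own signal where higher. The other group kept its measured values, so the fold is a minimum only where all arrays of that group were above background. Named genes are the inducible phosphatases and the ERK, JNK and p38 kinases measured, the 3 genes of each tier with the smallest p, members whose probes disagree, and the pathway genes with the smallest p. Others, such as Dusp7, Dusp8, Dusp14, Dusp19 and Map2k1, were added after their values were seen. The rule, the members and all gene lists were chosen with earlier results of these data known. Promoters came from RefSeq (GRCr8). Alternatives covered the scaling, the value table, the floor, the filters, irregular spots, duplicate arrays, the groups fitted, the replicate number, the slide run and leaving out each pool; leaving out both dim pools was added after seeing the data.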

Additional observations from a re-analysis of the deposited data

How the results depend on the processing

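No member passed the threshold under any setting. Of 1308 pairs of a gene value and a setting, 1292 kept their direction. Many of these pairs could not change, since the replicate block and leaving out a pool of a group outside the comparison leave the fold change as it was. The count is therefore no measure of stability. The exceptions for TBI against sham at 4 h were Dusp2 at -0.12 with quantile normalization and -0.023 with a slide run block, and Mapk7 at 0.41 with that block. Leaving out 1 pool gave -0.023 (without TBI pool 2) to 0.74 for Dusp2, -1.46 to 0.41 (without TBI pool 2) for Mapk7 and -0.10 (without sham pool 1) to 0.72 for Mapk11, with -0.0029 without TBI pool 1. For the drugs at 4 h, quantile normalization gave 0.14 (TBI+MT) and 0.34 (TBI+CB) for Dusp2 and 0.044 (TBI+MT) for Dusp5. Leaving out 1 pool there gave -0.46 to 0.30 (without TBI pool 2) for Dusp2 in TBI+CB, with 0.16 without TBI+CB pool 2. Other probes gave 1.46 and -0.048 for Dusp5 in TBI+CB at 24 and 4 h, 1.12 in TBI+MT at 24 h, and 0.27 for Map4k2 in TBI against sham at 24 h.

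The number of all probes called was above 0 in these settings. TBI+CB against TBI at 24 h gave 2 with quantile normalization, 1 with no filter, 1 with 32 arrays and a random block, 7 without both dim pools and 0 to 15 leaving out 1 pool (15 without TBI+CB pool 1). Its 24 h minus 4 h difference gave 1 with quantile normalization and 2 with 32 arrays, and TBI+CB at 4 h gave 1 with 32 arrays, 1 with the slide run and 0 to 1 leaving out 1 pool. TBI+MT against TBI at 4 h gave 46 with the slide run and 0 to 49 leaving out 1 pool (49 without TBI pool 1). TBI against sham at 4 h gave 1 with 32 arrays, 2 with the same time only and 0 to 47 leaving out 1 pool (47 without TBI pool 1). At 24 h it gave 12 with 32 arrays, and its 24 h minus 4 h difference 1 with the floor of 0.02 and 0 to 1 leaving out 1 pool. TBI+MT against TBI+CB at 24 h gave 1 with 32 arrays and 0 to 1 leaving out 1 pool.

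The index difference at 24 h was, for TBI against sham, -0.47 with no filter, 0.15 with probes above background on all 32 arrays and -0.42 (without TBI pool 1) to 0.058 (without TBI pool 2). For TBI+MT against TBI it was -0.34 with the strict filter and -0.17 (without TBI pool 2) to 0.31 (without TBI pool 1), and for TBI+CB against TBI -0.50 with the strict filter, -0.089 without both dim pools and -0.089 (without TBI+CB pool 2) to 0.40 (without TBI+CB pool 1). At 4 h the strict filter gave -0.14 for TBI+MT against TBI. Of 320 class medians, 26 moved by more than the spread. The cause was not tested.

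Pools with the same replicate number did not deviate together (correlation -0.35 to 0.29), so the numbers were not taken as pairs. With the replicate block Dusp10 was at -1.68 for TBI+MT and -1.51 for TBI+CB at 24 h, with adjusted p = 0.904 and 0.676 (limma), and no call changed. A normexp background correction was not run, since the files used hold no separate background column. With 2 pools a group the number of pools limits the precision. Of 55 member genes 17 had no probe kept, and for these and for members above background on few arrays of a group a difference was not detectable.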
